A study of Mus musculus with 10 samples.

Results

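Immediate early genes are genes whose transcription starts within minutes of a signal, without new protein being made first. The genes followed here were Jun, Junb, Jund, Fos, Fosb, Atf3, Egr1, Klf4, Ier2 and Ier3, chosen by name, and all 10 of them were found among the 12160 genes listed in the deposited table. The libraries came from the pancreas of wild-type CD-1 male mice, given with the strain label Mixed, in which pancreatitis had been induced by 4 cycles of caerulein at 250 µg/kg, with 0 to 2 days of recovery. Tuft cells were sorted as Cd45-neg; EpCAM+; Siglec f+ cells and non-tuft epithelial cells as Cd45-neg; EpCAM+; Siglec f-neg cells, each library holding 100 cells of 1 mouse, with 5 libraries in each group. Both populations were sorted from 5 mice by the methods of the study, but which libraries share a mouse is not given in the labels. Both groups carried the same injury, and no mouse without caerulein was part of the series. The libraries of a group are given below by their numbers, 1 to 5. Values are log2(RPKM + 1), where RPKM is a read count divided by the length of the transcript and by the size of the library, after quantile normalization, so that levels of different genes can be set side by side.

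Most of these genes encode transcription factors. Jun, Junb and Jund pair with Fos or Fosb to form AP-1, a dimer that binds DNA near many growth and stress genes, and Atf3 belongs to the same leucine zipper class. Egr1 and Klf4 are zinc finger factors, and Ier2 and Ier3 are small proteins induced together with them. Several of them are known to be switched on early in acinar cells by secretagogue injury, and in many tissues also while cells are being dissociated. Both groups went through the same enzymatic digestion, at 37 °C for at most 30 min, before sorting. Undigested tissue was not analysed here, so transcripts made in the pancreas and transcripts made during dissociation cannot be told apart.

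Jun was lower in tuft cells in every library, Klf4 was higher in tuft cells, and Ier3 was lower by a call that was lost in most fits with 1 library left out. Fos was lower in every tuft library too, but the tuft libraries were so unlike each other that the difference did not pass the test. The other 6 genes, Junb, Jund, Fosb, Atf3, Egr1 and Ier2, did not pass. Only Jun and Fos did not overlap between the groups.

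The promoters of the 4 genes that carry these results are shown to give their regulatory context. They are the 250 bases before the transcription start, read 5′ to 3′ on the strand of the gene, from RefSeq on the build GRCm38.p6, which held a window for 8 of the 10 genes. Capitals mark matches to the motifs that were searched on both strands. Jun lies at chr4:95052223-95052472 on the minus strand, Fos at chr12:85473640-85473889 on the plus strand, Ier3 at chr17:35821463-35821712 on the plus strand and Klf4 at chr4:55532476-55532725 on the minus strand.
Jun: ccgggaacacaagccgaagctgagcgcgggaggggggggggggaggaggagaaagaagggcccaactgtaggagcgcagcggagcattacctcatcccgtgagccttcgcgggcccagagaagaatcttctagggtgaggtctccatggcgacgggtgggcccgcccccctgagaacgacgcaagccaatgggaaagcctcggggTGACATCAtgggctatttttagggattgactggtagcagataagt
Fos: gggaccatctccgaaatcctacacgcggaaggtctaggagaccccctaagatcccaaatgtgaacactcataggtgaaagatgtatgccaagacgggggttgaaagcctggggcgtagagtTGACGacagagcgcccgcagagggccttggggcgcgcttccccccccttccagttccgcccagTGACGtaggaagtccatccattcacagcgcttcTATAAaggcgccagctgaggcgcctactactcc
Ier3: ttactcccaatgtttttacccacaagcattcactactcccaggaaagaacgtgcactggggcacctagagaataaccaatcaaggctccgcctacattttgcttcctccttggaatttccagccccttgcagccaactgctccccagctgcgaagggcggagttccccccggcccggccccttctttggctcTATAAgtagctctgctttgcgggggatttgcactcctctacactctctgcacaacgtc
Klf4: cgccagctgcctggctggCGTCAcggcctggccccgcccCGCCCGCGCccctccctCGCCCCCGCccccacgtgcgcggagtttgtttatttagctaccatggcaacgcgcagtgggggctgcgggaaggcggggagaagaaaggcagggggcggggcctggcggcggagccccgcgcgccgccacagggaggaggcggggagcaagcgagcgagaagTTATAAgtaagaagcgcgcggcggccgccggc

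The Jun window held TGACATCA, the AP-1-like sequence of this promoter, 45 bases before the start, a motif found in 2.93% of all 32851 windows of the same length. The Fos window held the cyclic AMP response element core TGACG at 129 and 66 bases before the start, a core found in 17.8% of windows, and TATAA at 33 bases before it, found in 22.8%. The Ier3 window held TATAA at 58 bases before the start. The Klf4 window held 2 matches to the Egr1 binding motif GCGNGGGCG, both on the opposite strand, at 211 and 194 bases before the start, a motif found in 4.70% of windows. It also held TGACG on the opposite strand at 232 bases and TATAA at 31 bases before the start, with a match to TATAA on the opposite strand overlapping the latter. The serum response element (CArG box), the full element TGACGTCA and the AP-1 site TGANTCA, found in 1.47%, 1.55% and 6.75% of all windows, were in none of the 8 windows, which says only that these letters are not within 250 bases of the start.

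**Figure D1:**
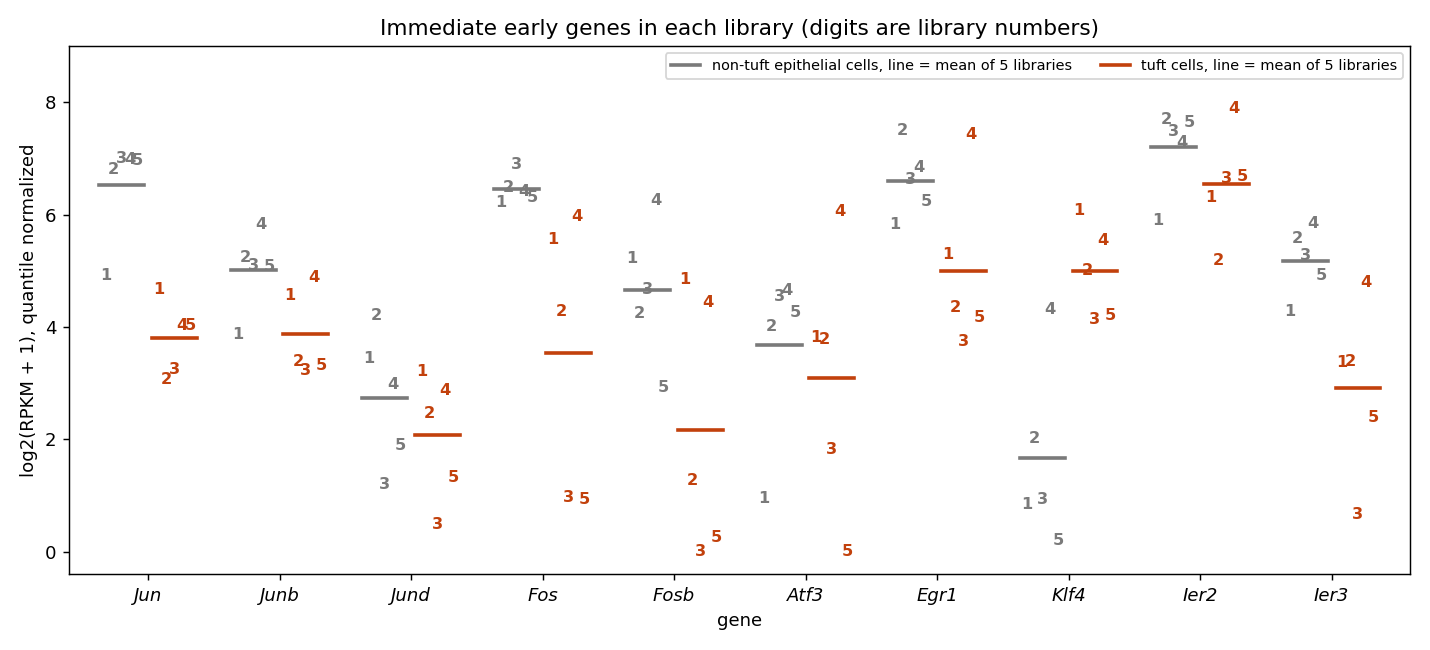
Level of each of the 10 immediate early genes in each library, as log2(RPKM + 1) after quantile normalization, with non-tuft epithelial cells in grey and tuft cells in orange; each digit is the library of that number and each line the mean of 5 libraries. Jun and Fos did not overlap between the groups, and the Fos values of tuft cells ran from 0.93 to 5.97.

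Jun, the AP-1 subunit that drives proliferation and stress responses, lies at chr4:94715725-94718913 of the mouse build NCBIM37 (mm9) on the minus strand and has a single exon. Its level in non-tuft libraries 1 to 5 was 4.92, 6.80, 7.0, 6.99 and 6.97, and in tuft libraries 1 to 5 it was 4.67, 3.06, 3.25, 4.03 and 4.02. All tuft libraries were below all non-tuft libraries, although non-tuft library 1 stood far below the other 4 and only a little above tuft library 1. The log2 fold change, tuft minus non-tuft, was -2.73 ± 0.51 (SE, n = 5 and 5), a 6.63-fold lower mean, with an adjusted p of 0.00347 by limma and an exact two-sided permutation p of 0.00794, the smallest that 5 against 5 libraries can give. Jun stayed past the adjusted p threshold of 0.05 in all 16 alternative fits, with adjusted p between 0.000927 and 0.0213. An annotated gene on the opposite strand, BC042782, overlaps Jun and was not in the table. Smart-Seq2 libraries do not keep the strand, so reads of the pair could not be told apart.

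Junb and Jund, the other 2 Jun proteins, behaved less clearly. Junb was 3.87, 5.23, 5.09, 5.82 and 5.08 in non-tuft libraries and 4.56, 3.39, 3.22, 4.88 and 3.32 in tuft libraries. Non-tuft library 1 was within the tuft range, so the groups overlapped, and the log2 fold change of -1.14 ± 0.49 had an adjusted p of 0.164 and an exact permutation p of 0.0476. Jund, which in many cells is expressed without a stimulus, ran from 1.20 to 4.20 in non-tuft and from 0.49 to 3.21 in tuft libraries. Its log2 fold change was -0.67 ± 0.66 (adjusted p = 0.574), with a 95% interval of -2.10 to 0.75 that leaves room for a fall of over 4-fold.

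Fos, the partner that is made only for a short time after a signal, lies at chr12:86814840-86818223 (NCBIM37, plus strand). It was 6.22, 6.48, 6.90, 6.42 and 6.30 in non-tuft libraries and 5.55, 4.28, 0.97, 5.97 and 0.93 in tuft libraries. The non-tuft libraries were nearly level, whereas tuft libraries 1 and 4 were close below them and libraries 3 and 5 close to 0. The SD was 0.26 in non-tuft and 2.44 in tuft cells; of the 6102 genes above the lowest value in all libraries, 4.90% had a lower SD than Fos in non-tuft cells and 99.7% had a lower SD than Fos in tuft cells. For Fos the difference was -2.92 ± 0.92 on the log2 scale, with an adjusted p of 0.0568 and an exact permutation p of 0.00794. Without tuft library 4 the adjusted p was 0.0287 and without tuft library 1 it was 0.0393, so that Fos was called lower in those fits.

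Fosb, a close relative of Fos, followed the same libraries. It was 5.22, 4.24, 4.66, 6.25 and 2.92 in non-tuft libraries and 4.85, 1.27, 0, 4.43 and 0.26 in tuft libraries. Tuft libraries 1 and 4 lay within the non-tuft range, and libraries 2, 3 and 5 lay below it. The log2 fold change of -2.50 ± 0.97 did not pass (adjusted p = 0.126, exact permutation p = 0.0873). With the library number as a block in limma, Fosb passed (adjusted p = 0.0324), but the labels do not tie these numbers to mice.

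Atf3, a stress factor induced by amino acid shortage and by injury, was 0.94, 4.01, 4.54, 4.64 and 4.26 in non-tuft libraries. In tuft libraries it was 3.80, 3.78, 1.82, 6.06 and 0. The highest and the lowest of all 10 values were both in tuft cells, library 4 above every non-tuft library and library 5 at 0. Over all libraries it was -0.59 ± 1.02 on the log2 scale (adjusted p = 0.768), and it became 0.18 without tuft library 5.

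Egr1, which is induced through the MAP kinase ERK and binds its own GC-rich motif, was 5.83, 7.50, 6.62, 6.83 and 6.22 in non-tuft libraries. In tuft libraries it was 5.30, 4.34, 3.74, 7.43 and 4.17. Tuft library 4 was as high as the upper non-tuft libraries, while the other 4 tuft libraries were below all of them. With all libraries the log2 fold change was -1.60 ± 0.65 (adjusted p = 0.139), and without tuft library 4 it was -2.21 with an adjusted p of 0.0125. The annotated gene Gm17507 overlaps Egr1 on the opposite strand, Gm11175 does the same at Jund, and neither was in the table.

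Klf4, a factor of differentiating epithelia, was the single member that was higher in tuft cells. It lies at chr4:55540013-55545347 (NCBIM37, minus strand) and was 0.84, 2.02, 0.93, 4.32 and 0.19 in non-tuft libraries and 6.07, 5.00, 4.13, 5.54 and 4.20 in tuft libraries. Non-tuft library 4 reached the level of tuft libraries 3 and 5, and the other 4 non-tuft libraries were below all tuft libraries. The log2 fold change was 3.33 ± 0.72, a 10.0-fold higher mean, with an adjusted p of 0.00804 and an exact permutation p of 0.0238. It stayed past the adjusted p threshold in all 16 alternative fits, but fell under 4-fold, to 1.63 on the log2 scale, when 10 was added to RPKM in place of 1. The mean level of the 13 listed tuft cell markers in non-tuft libraries 1 to 5 was 2.38, 3.40, 0.29, 0.03 and 3.88. Non-tuft library 4, the highest of the group for Klf4, was thus the lowest for tuft markers and library 5 the reverse, whereas library 2 had the next highest level of both. The part of tuft cell RNA in the Klf4 level of non-tuft libraries was not tested.

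Ier2 and Ier3 share a name but not a pattern. Ier2, a nuclear protein, was the highest member in both groups, at 5.90 to 7.69 in non-tuft and 5.18 to 7.89 in tuft libraries, and it had more RPKM than 86.2% to 98.0% of all listed genes in every library. Its log2 fold change was -0.66 ± 0.53 (adjusted p = 0.492). Ier3, which limits cell death, lies at chr17:35958629-35959868 (NCBIM37, plus strand). It was 4.27, 5.57, 5.27, 5.85 and 4.91 in non-tuft libraries and 3.38, 3.39, 0.66, 4.79 and 2.38 in tuft libraries. Tuft library 4 lay within the non-tuft range and tuft library 3 far below everything else. On the log2 scale Ier3 differed by -2.25 ± 0.66, a 4.77-fold lower mean, with an adjusted p of 0.0418 and an exact permutation p of 0.0159. The adjusted p of Ier3 missed the threshold in 10 of 16 alternative fits, among them each fit without non-tuft library 2, 3, 4 or 5 or without tuft library 1, 2, 3 or 5, with adjusted p from 0.0159 to 0.104 when 1 library was left out. With 10 added to RPKM in place of 1 it still passed by p, but at -1.31 on the log2 scale it was under 4-fold.

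**Figure D2:**
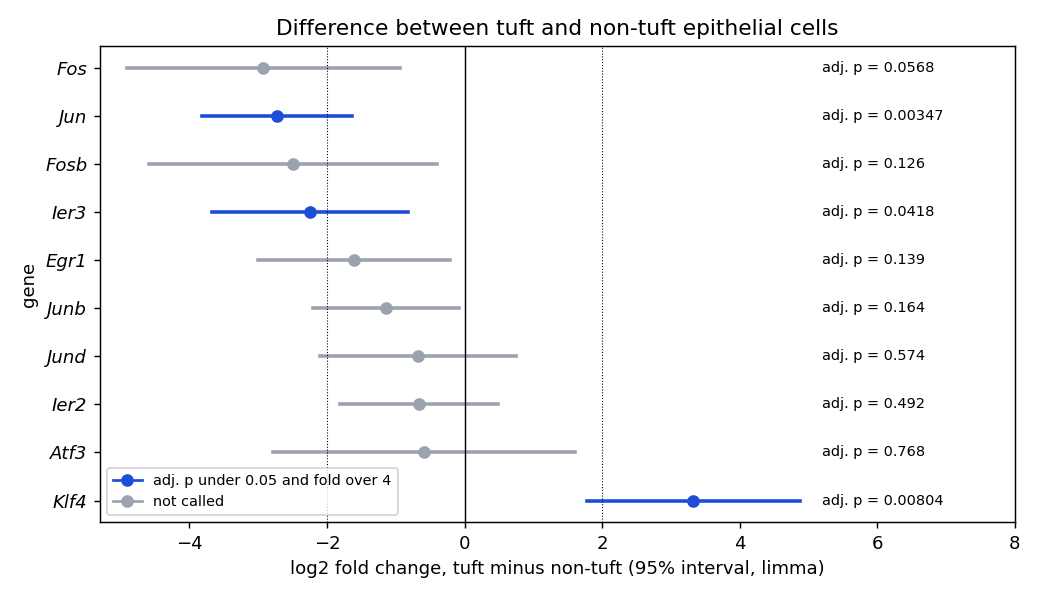
Log2 fold change of each gene, tuft minus non-tuft epithelial cells, with its 95% interval from limma and the p adjusted over all 12160 genes; dotted lines mark a 4-fold difference and blue marks the called genes. Jun and Ier3 were called lower and Klf4 higher, and the widest intervals were those of Fos, Fosb and Atf3.

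The counts of members called are set beside those of all genes. A call needed both an adjusted p below 0.05 and more than a 4-fold difference. By this rule 1 of 10 members was called higher, beside 4.32% of all 12160 genes, and 2 of 10 were called lower, beside 3.99%. By the adjusted p alone the members were the same 1 and 2, beside 6.19% and 5.55% of all genes. Groups that did not overlap were seen for 0 members higher in tuft cells, beside 6.31% of all genes, and for 2 members lower, Jun and Fos, beside 5.12%. The log2 fold change was below 0 for 9 of the 10 members, with a median of -1.37 over the members against 0.02 over all genes. When each library was instead centred on the mean of its 79 ribosomal protein genes, the median of all genes moved to 0.82. Then 6 members stayed below 0, Jund, Atf3 and Ier2 being those that turned. This centring moves the log2 fold change of every gene by the same amount. That 9 of 10 members were below the median of all genes in both fits was therefore fixed in advance. The share of called genes that were higher in tuft cells was 52.0% in the fit as reported and 85.3% with that centring. Jun was then at -1.93 (adjusted p = 0.0213), which no longer exceeds 4-fold. Relative to the median of all genes Jun was at -2.75, a value that this centring cannot change.

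The order of the levels differed between the groups mainly through Klf4. In non-tuft cells the means ran from Ier2 at 7.20 through Egr1 at 6.60, Jun at 6.53, Fos at 6.46, Ier3 at 5.17, Junb at 5.02, Fosb at 4.66, Atf3 at 3.68 and Jund at 2.74 to Klf4 at 1.66. Among neighbours in this order, the gap exceeded its SD over the 5 libraries between Ier2 and Egr1, 0.60 ± 0.55, and between Fos and Ier3, 1.29 ± 0.55, each with the same sign in 5 of 5 libraries, whereas the other neighbours did not differ beyond their spread. In tuft cells Ier2 was first at 6.54 and Jund last at 2.07, and Klf4 followed at 4.99, level with Egr1 at 5.00. There the gap exceeded its SD between Ier2 and Egr1, 1.54 ± 1.08, and between Klf4 and Junb, 1.12 ± 0.42. Junb at 3.87, Jun at 3.80, Fos at 3.54, Atf3 at 3.09, Ier3 at 2.92 and Fosb at 2.16 each differed from the next in this order by less than the spread of the gap, and genes further apart in it were not compared.

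Within tuft cells the same libraries were high or low for most members. Tuft library 4 held the highest tuft value of 6 members and library 1 that of the other 4, while these libraries held the highest tuft value for 18.9% and 26.9% of the 6102 genes. Tuft library 3 held the lowest value of 6 members, beside 22.3% of genes, and libraries 2 and 5 that of 2 each. Against the range of the non-tuft libraries, 7 of 10 members were below it in tuft libraries 2, 3 and 5, 4 in library 1 and 2 in library 4, and 3 were above it in library 4, namely Atf3, Klf4 and Ier2. In each tuft library 19.2% to 21.0% of the 6102 genes were below the non-tuft range, and in tuft library 4 21.5% were above it. Egr1 and Ier3 had SDs of 1.47 and 1.53 among tuft libraries, where the median gene had 0.61, and 97.7% and 98.0% of genes had a lower SD. Among non-tuft libraries it was library 1 that held the lowest value of 7 members, as it did for 18.9% of genes, and library 4 that held the highest of 5, beside 19.0% of genes.

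Markers of acinar cells, the enzyme-making cells of the exocrine pancreas, also differed among tuft libraries. In non-tuft libraries the mean of the acinar markers was 10.3 to 11.2 and that of ductal markers 5.16 to 6.91. All 14 acinar markers of the list were measured, and 11 of them were called lower in tuft cells. In RPKM, the median marker in tuft libraries 1 to 5 was at 11.6%, 9.22%, 2.97%, 22.1% and 0.551% of its non-tuft mean. Fos was at 51.8%, 20.8%, 1.08%, 69.6% and 1.02% of its non-tuft mean in the same libraries, so that Fos and the acinar markers placed the 5 tuft libraries in the same order, with libraries 3 and 5 nearly level for Fos. Of the 10 members, 2 had that order, Fos and Atf3. Jun was at 23.7%, 7.09%, 8.23%, 14.8% and 14.8%, a narrower range and another order. In tuft library 4 Egr1 was at 165%, Ier2 at 149% and Atf3 at 408% of the non-tuft mean, where the median acinar marker was at 22.1%. Single acinar markers differed from that median. In this library Ctrb1 at 15.7, Prss2 at 12.9 and Pnlip at 9.79 were within the non-tuft range, and the other acinar markers were below it. The summed RPKM of the acinar markers ran from 757 in tuft library 5 to 70084 in tuft library 4. It was 72751 to 108980 in non-tuft libraries, and no marker was at the lowest value in a whole group. The part of acinar RNA in the levels of the immediate early genes in tuft libraries was not tested.

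**Figure D3:**
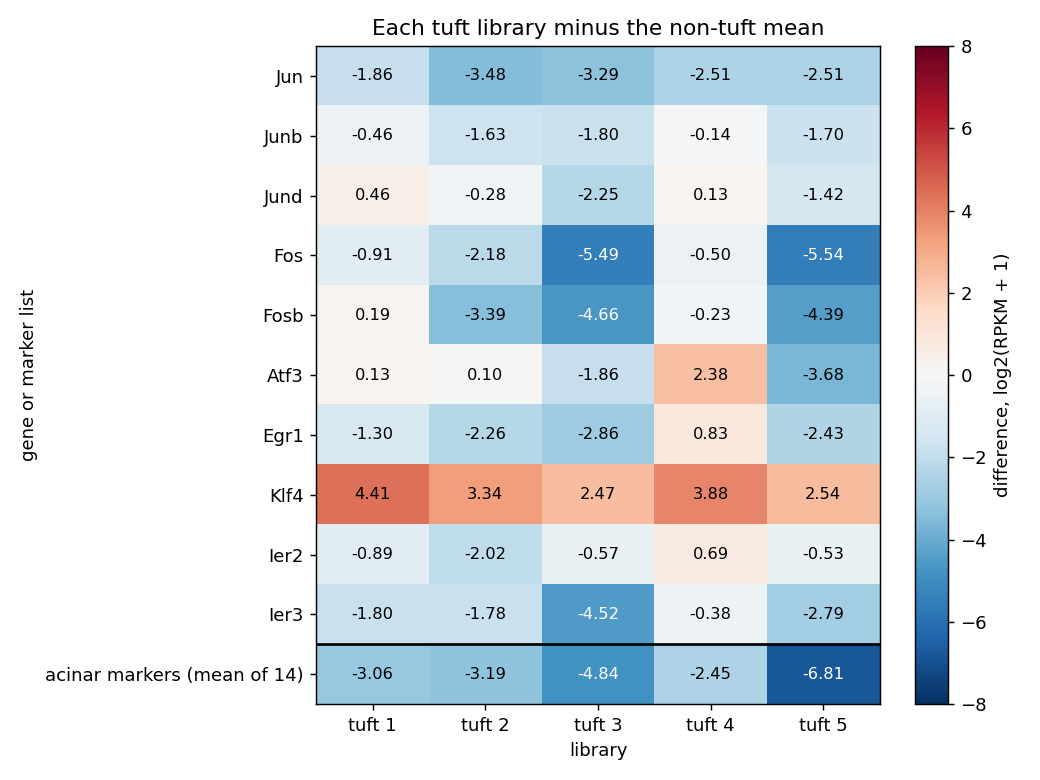
Level of each gene in each tuft library minus the mean of the 5 non-tuft libraries, as a difference in log2(RPKM + 1), with the mean over 14 acinar markers in the bottom row; red is above and blue below the non-tuft mean. Jun was below the non-tuft mean by 1.86 or more in all 5 tuft libraries and Klf4 above it by 2.47 or more. Every gene but Ier2 was higher in libraries 1 and 4 than in libraries 3 and 5. For Jun, libraries 4 and 5 were nearly level, at 4.03 and 4.02.

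Other cell types were checked as well. All 13 listed tuft markers were called higher in tuft cells. Siglecf was at 5.62 to 7.52 in tuft cells and at 0 in all non-tuft libraries but library 2, where it was 1.61, and Dclk1, the usual tuft cell marker, was at 10.7 to 12.7 in tuft and 0 to 8.46 in non-tuft cells. Epcam, the epithelial gate marker, was at 7.44 or more in every library. It was not equal between the gates, at 9.19 to 10.9 in tuft and 7.44 to 9.08 in non-tuft libraries. By limma its log2 fold change was 1.72 (adjusted p = 0.0329), under 4-fold. Ptprc, which encodes Cd45, was at 2.74 to 4.33 in tuft and 0 to 1.93 in non-tuft cells although both gates were Cd45-neg, and 1 of 6 listed leukocyte markers, Ptprc, was called. Of 10 ductal markers 2 were higher and 1 lower. The mean of 9 fibroblast and endothelial markers was 5.35 in non-tuft library 5 and 3.38 in tuft library 5 and at most 1.18 elsewhere. Of these 9, 1 was called, Rgs5, a pericyte gene named here after its values were seen, which was lower at 0 to 0.64 in tuft against 2.52 to 5.76 in non-tuft libraries (log2 fold change -3.98, adjusted p = 0.00115). In bulk libraries, fewer cells with a transcript and less of it per cell cannot be told apart.

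The genes whose deviations from their group means were most like the mean deviation of the members over the 10 libraries were Rpl18 (Pearson's r = 0.968), Sart1 (0.951), Rps9 (0.944), Rpl24 (0.942) and Cuta (0.932), out of 6094 genes compared. The profile was the mean of the 8 members that were above the lowest value in every library, thus without Fosb and Atf3, and the points share library, depth and normalization, so that r is a description. Among these genes, Rpl18, Rps9 and Rpl24, encode ribosomal proteins. The mean over 79 ribosomal protein genes was 7.95 ± 0.17 (SD, n = 5) in non-tuft and 7.14 ± 0.48 in tuft libraries, and in tuft libraries 1 to 5 it was 7.72, 7.28, 6.59, 7.41 and 6.72. Tuft libraries 1 and 4, high for most members, were thus also the highest for ribosomal protein genes, and libraries 3 and 5 the lowest. In non-tuft libraries 1 to 5 the same mean was 8.001, 8.170, 7.825, 7.997 and 7.738. Non-tuft library 1, lowest of its group for 7 members, was thus not low for ribosomal protein genes. Whether the level of ribosomal protein genes had a part in the levels of the members was not tested. Ribosomal protein genes have many near-identical copies in the genome, which makes the values of single ones uncertain.

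Relatives and co-regulated genes were read from lists chosen by function. Their counts stand beside 4.32% of all genes called higher and 3.99% called lower. Among 16 listed AP-1 relatives, other leucine zipper factors of which not all pair with Jun or Fos, none was called by both criteria. Mafk, a small Maf protein, was higher by 1.42 on the log2 scale (adjusted p = 0.0468, lost in 9 of 10 fits with 1 library left out), under 4-fold, and Atf5 at -2.24 and Crem, a cyclic AMP responsive factor, at -2.44 had adjusted p of 0.0516 and 0.0559. Over the whole list the median was -0.36 on the log2 scale. Among 46 other early-response regulators 6 were called lower and 1 higher, with a median of -0.46. Of the 6, Gem was at 0 in all tuft libraries and was listed only through its non-tuft values, which fixed its direction.

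Of these regulators, Ifrd1 was lower by a log2 fold change of -3.26 ± 0.51 (adjusted p = 0.00119), and Id3, an inhibitor of basic helix-loop-helix factors, by one of -2.84 (0.00251). Zfp36l1, which promotes decay of AU-rich mRNAs, was at -2.75 (0.00256), Hes1, a Notch target, at -2.75 (0.00617) and Nr4a2, an orphan nuclear receptor, at -2.60 (0.00625). Ifrd1, Id3, Zfp36l1, Hes1 and Nr4a2 were below all non-tuft libraries in all 5 tuft libraries, including tuft library 4 where Fos and Egr1 were high. Over the 46 regulators, 7 were lower without overlap and 4 were higher without overlap, beside 5.12% and 6.31% of all genes. Gem, a small GTPase, was listed at 0 in all tuft libraries and at 0.17 to 4.23 in non-tuft libraries (adjusted p = 0.0420). Gadd45a, a DNA damage response gene, was higher by 2.57 ± 0.69 (adjusted p = 0.0287), with tuft libraries at 4.66 to 6.08 and non-tuft libraries at 0 to 4.28. The call of Gem was lost in 8 of the 10 fits without 1 library, with an adjusted p of up to 0.101, and that of Gadd45a in 4 (non-tuft 3 and tuft 2, 4 and 5), with up to 0.0798.

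Secreted and surface products of the early response went both ways. Of 14 listed, 2 were called higher and 2 lower. Of the 2 called higher, Ptgs2 was listed only through its tuft values, which fixed its direction. Ptgs2, the inducible cyclooxygenase, was at 2.06 to 3.67 in tuft libraries and at the lowest value of the library in all 5 non-tuft libraries (adjusted p = 0.000800). Adamts1, a matrix protease, was lower by a log2 fold change of -3.65 ± 0.63 (adjusted p = 0.00212), and Ctgf, a matrix protein induced by TGF-beta, by one of -3.55 ± 0.92 (0.0227). With 1 library left out Ctgf lost its call in 5 of 10 fits (adjusted p up to 0.0712), the libraries being non-tuft 2 and 3 and tuft 3, 4 and 5.

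Genes of the MAP kinase pathway, which carries signals to the promoters of Fos and Egr1, mostly did not pass. Of 15 feedback inhibitors 1 was called higher and 1 lower. This list was drawn widely and also holds Cish, Socs1, Socs2 and Socs3, inhibitors of cytokine signaling, and the Egr1 corepressors Nab1 and Nab2. Dusp14, a dual specificity phosphatase, was at 4.77 to 6.13 in tuft and 0 to 3.36 in non-tuft cells, a log2 fold change of 4.06 ± 0.63 (adjusted p = 0.00111), and Spred1, an inhibitor of Ras signaling, was lower at -2.37 ± 0.53 (0.0104). Errfi1, an inhibitor of the EGF receptor, was lower by less than 4-fold (-1.69, adjusted p = 0.0246). Of 51 kinases and serum response factors, Mknk1 was called lower (-2.56, adjusted p = 0.00810), while Map3k1 (-1.94, adjusted p = 0.0258) and Mapkapk5 (1.81, adjusted p = 0.00419) differed by less than 4-fold. Leaving out 1 library ended the call by adjusted p of Errfi1 in 3 of 10 fits (non-tuft 3, tuft 1, tuft 2; adjusted p up to 0.0648) and that of Map3k1 in 5 (non-tuft 4, non-tuft 5, tuft 1, tuft 2, tuft 3; up to 0.0714). The medians of the 2 lists were -1.07 and 0.11. The first is the value of Socs2, and 7 genes of that list were above 0 and 8 below, so it does not describe MAP kinase inhibitors alone.

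Other stress programs were compared in the same way. Of 33 heat shock genes, 4 were called lower, Serpinh1 (-2.47, adjusted p = 0.00149), Cryab (-3.11, 0.0158), Hspb8 (-3.09, 0.0270) and Hspb1 (-2.67, 0.0396), and 1 higher, the factor Hsf2 (2.49, 0.00205), with a median over the list of 0.05. Cryab, Hspb8 and Hspb1 are small heat shock proteins and Serpinh1 is a collagen chaperone. Of 18 genes of the integrated stress response, which Atf4 drives when translation is inhibited, 4 were called lower and none higher, with a median of -0.96. Of all genes 3.99% were called lower and 4.32% higher. Nupr1, a stress protein abundant in the injured pancreas, was at 7.51 to 9.17 in non-tuft and 1.95 to 4.25 in tuft libraries, a log2 fold change of -5.19 ± 0.55 (adjusted p = 6.08e-05). Asns, the asparagine synthetase, was lower at -2.46 ± 0.52 (adjusted p = 0.00733). Chac1 and Trib3 were called lower (adjusted p = 0.000102 and 0.0240) with all tuft libraries at 0, as was Slc7a11 (0.00650) by the adjusted p alone. Genes at 0 in all tuft libraries, Gem among them, passed the authors' variance filter only through their non-tuft values, and Ptgs2 only through its tuft values. The direction of such genes was thus fixed by the filter, and they are part of the list counts and medians given above. With 1 library left out the calls of Hspb1, Hspb8 and Trib3 were lost in 8, 7 and 7 of 10 fits, with adjusted p of up to 0.0960, 0.0814 and 0.0566.

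**Figure D4:**
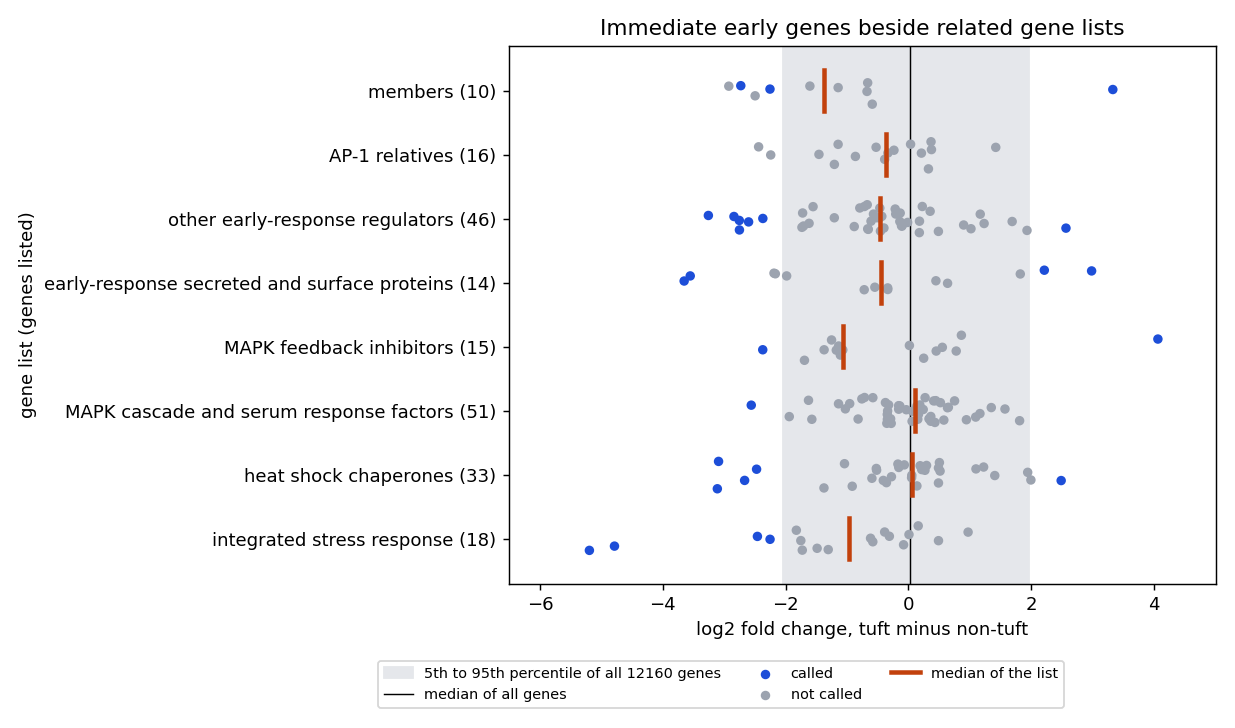
Log2 fold change, tuft minus non-tuft, of every listed gene of each list, with called genes in blue and the median of each list in orange; the grey band runs from the 5th to the 95th percentile of all 12160 genes and the vertical line is their median. The members had a median of -1.37, the lowest of the 8 lists. The list named MAPK feedback inhibitors, which also holds Cish, Socs and Nab genes, and the integrated stress response were next at -1.07 and -0.96. Centring on ribosomal protein genes moves every point up by the same amount.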

How the data were processed

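RNA-seq was performed on 10 Smart-Seq2 libraries. Per the labels and the methods, the authors mapped reads to mm9 with HISAT2, quantified RPKM with StringTie and Ballgown, removed genes of low variance and deposited quantile normalized log2(RPKM + 1) values. The deposited columns of the authors' own comparison (fold ratio, p-value, false discovery rate) were not used. Depth is unknown, so no counting interval is given, and the number of libraries limits the precision. Groups were taken from sample titles. Tuft and non-tuft libraries were compared in limma (version 3.58.1; R version 4.3.3), adjusting p by Benjamini-Hochberg over the 12160 genes. For each gene an exact permutation test, two-sided, enumerated all 252 regroupings. The fit was tested on simulated data. Alternatives were a replicate block, 0.1 or 10 added in place of 1, centring on 79 ribosomal protein genes, testing only genes whose mean reached 2 on the log2 scale, trend and robust eBayes, each library left out, and a fold over 2. Positions come from Gencode on NCBIM37 and promoters from RefSeq on GRCm38.p6. Named genes were the members, in each list every called gene and the 3 with the smallest p, the 5 genes most like the members, and 4 sort checks; 1 called gene of the lists is not reported here. The members and lists were chosen with earlier results of these data known.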

Additional observations from a re-analysis of the deposited data

Results flagged for a closer look

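Of the 20 groups of 5 libraries tested over the members, 3 held a library far from the other 4, and it was non-tuft library 1 each time. Jun was 4.92 there against 6.80 to 7.0 in the other non-tuft libraries, Atf3 was 0.942 against 4.01 to 4.64, and Ier2 was 5.90 against 7.28 to 7.69. Over the members and the named genes of the other lists, 8 of 80 groups were found in this way. Chance gives about 1 in 20 for independent groups without ties. These groups share libraries and some have values tied at 0, so the counts cannot be measured against that rate. Hspb8 was 3.74 in non-tuft library 1 against 5.65 to 6.33. Nr4a2 was 1.03 in tuft library 3 against 0 to 0.098, and Cryab was 1.42 in tuft library 5 against 0 in the others. Cryab at 0.169 against 3.68 to 4.49, and Ptgs2 at 0.169 against 0, were in non-tuft library 2, whose lowest value is 0.169, so that Ptgs2 is at the lowest value of every non-tuft library.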

How the results depend on the processing

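With 10 added, 0 members were called higher and 1 lower, 162 and 116 of all genes, and 1 and 3 genes of the other lists. With 0.1 added 1 member was lower by either rule. With centring on ribosomal protein genes 0 members were lower by p and fold and 1 by p alone; among all genes 1298 were higher and 224 lower, or 2238 and 292 by p alone, and 17 and 6 in the other lists, against 525 and 485, 753 and 675, and 5 and 18 as reported. The log2 fold changes of Jund (0.13), Atf3 (0.21) and Ier2 (0.14) turned above 0, by construction of that constant shift, and Atf3, between -1.33 and 0.18 when 1 library was left out, was above 0 without tuft library 5. With a fold over 2, 8 genes of the other lists were higher. Leaving out 1 library gave 1 to 4 members lower by either rule, the 4 without tuft library 4, and 3 to 7 genes of the other lists higher. In non-tuft and tuft libraries of the same number, deviations correlated at 0.0619 to 0.241, over 0.1 in 3 of 5. Of the 10 libraries, 7 correlated best with their own number. The labels do not tie numbers to mice, so whether equal numbers share a mouse is not known, and the main fit was unpaired. With the replicate block 518 genes were higher and 491 lower, and 3 members were lower, Fosb (adjusted p = 0.0324) joining Jun and Ier3. Over the members, 141 of 160 comparisons with an alternative kept direction and side of the adjusted p threshold. That count includes genes that stayed uncalled and does not use the 4-fold rule. Among the called members, Jun and Klf4 kept theirs in 16 of 16 alternatives and Ier3 in 6 of 16. Values near 0 have no depth behind them and do not bound expression.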
